A study of Homo sapiens with 16 samples.

Results

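The clustered histone genes are the copies of the core histone genes (H2A, H2B, H3 and H4) and of the linker histone H1 genes that lie side by side in the histone clusters, the largest of them on human chromosome 6. They were taken as every gene whose symbol starts with HIST1H, HIST2H, HIST3H or HIST4H and does not end in a pseudogene suffix, which gave 58 of the 37864 genes in the count table: 4 H1, 12 H2A, 18 H2B, 12 H3 and 12 H4 genes. This rule by name kept some H2B pseudogenes. HIST2H2BA, HIST2H2BB and HIST2H2BD are typed as transcribed pseudogenes in GENCODE v29, and HIST2H2BC is named H2BC20P in RefSeq. The H2B sums and shares of counts below include them. RNA was sequenced from MDA-MB-231, a mesenchymal-like line from human triple-negative breast cancer, with 4 libraries each of cells given afatinib, paclitaxel, both drugs (the combination) or the solvent DMSO. Afatinib blocks the kinases of the EGFR family irreversibly, and paclitaxel stabilises microtubules. All groups came from this 1 line, and the sources used here give neither dose nor time of treatment. Nothing in the labels says whether replicates were separate cultures, so p-values measure the spread between these libraries, which may be technical.

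Most clustered histone genes are transcribed with DNA replication and give mRNAs that end in a stem-loop in place of a poly(A) tail. A subset also gives polyadenylated mRNA, which is known from differentiated or arrested cells. Many H2A and H2B genes stand head to head and share the stretch between their starts. H2B promoters are known for an octamer element bound by the factor OCT1.

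Promoter letters of 7 members described below are shown, of which 6 were higher with paclitaxel. The last, HIST1H4B, passed the low-count filter only through DMSO and afatinib libraries, so its lower level with paclitaxel is a description only. Each line gives the 200 bases before the transcript start from RefSeq, build GRCh38.p14, read 5′ to 3′ on the strand of the gene. Capitals mark the octamer ATTTGCAT and the box CCAAT, each on either strand, and TATAAA on the strand of the gene.
HIST1H2BK (H2BC12, chr6:27146859-27147058, minus strand): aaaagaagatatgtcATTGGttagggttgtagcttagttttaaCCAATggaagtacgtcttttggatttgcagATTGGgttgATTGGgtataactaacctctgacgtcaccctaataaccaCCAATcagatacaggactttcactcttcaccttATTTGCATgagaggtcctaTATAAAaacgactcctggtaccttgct
HIST1H2BJ (H2BC11, chr6:27132796-27132995, minus strand): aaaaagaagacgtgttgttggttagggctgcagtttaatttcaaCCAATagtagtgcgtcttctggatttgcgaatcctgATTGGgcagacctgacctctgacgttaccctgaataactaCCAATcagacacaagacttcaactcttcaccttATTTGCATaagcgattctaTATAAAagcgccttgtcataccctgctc
HIST2H2BE (H2BC21, chr1:149886683-149886882, minus strand): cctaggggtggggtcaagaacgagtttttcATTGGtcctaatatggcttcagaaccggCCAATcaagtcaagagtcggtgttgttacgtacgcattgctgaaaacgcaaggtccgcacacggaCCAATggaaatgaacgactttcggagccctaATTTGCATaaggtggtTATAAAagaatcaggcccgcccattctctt
HIST1H2BC (H2BC4, chr6:26123927-26124126, minus strand): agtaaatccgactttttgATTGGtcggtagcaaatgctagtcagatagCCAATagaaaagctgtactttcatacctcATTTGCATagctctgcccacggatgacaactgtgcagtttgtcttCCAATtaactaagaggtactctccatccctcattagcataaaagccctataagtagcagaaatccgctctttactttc
HIST1H2BD (H2BC5, chr6:26157921-26158120, plus strand): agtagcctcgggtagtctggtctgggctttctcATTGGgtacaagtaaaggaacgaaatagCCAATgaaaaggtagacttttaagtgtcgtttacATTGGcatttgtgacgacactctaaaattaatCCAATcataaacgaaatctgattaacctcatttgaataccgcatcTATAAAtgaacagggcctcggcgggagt
HIST1H1C (H1-2, chr6:26056471-26056670, minus strand): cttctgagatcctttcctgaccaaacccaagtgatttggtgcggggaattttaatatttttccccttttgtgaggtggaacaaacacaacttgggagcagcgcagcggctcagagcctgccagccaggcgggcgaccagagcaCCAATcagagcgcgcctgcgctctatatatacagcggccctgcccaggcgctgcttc
HIST1H4B (H4C2, chr6:26027284-26027483, minus strand): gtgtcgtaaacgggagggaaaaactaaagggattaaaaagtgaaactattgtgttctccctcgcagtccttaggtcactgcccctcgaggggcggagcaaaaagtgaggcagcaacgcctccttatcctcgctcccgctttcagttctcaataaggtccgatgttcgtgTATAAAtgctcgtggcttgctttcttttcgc

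A promoter row was found for 48 members. The octamer stood in 16 of them (33.3%), against 1.32% of all 27305 promoters of the same length. Among H2B genes it stood in 11 of 14. TATAAA stood in 56.2% of the members' promoters and 5.93% of all promoters, and CCAAT in 85.4% and 28.9%. Of the matched members that rose with paclitaxel 5 of 9 held the octamer, of those called lower 1 of 3, and of those not called 2 of 11. The octamers of HIST1H2BC and HIST1H2AC are the same 8 bases, read from either side of their shared stretch, and those of HIST2H2BE and HIST2H2AC are likewise 1 site. These counts describe letters in a window and are too small to set the groups apart.

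Counts of the clustered histone genes were few in all libraries. The library kit is not known here, so few counts do not tell how much mRNA without a poly(A) tail the cells held. A library held 28.4M to 48.1M counts, of which the 58 members together took 1114 to 4389. Markers of the line were present (VIM at 844 to 1210 CPM, the library-scaled count with TMM factors, and EGFR at 420 to 1050 CPM). The blood markers PTPRC and CD3E did not pass 0.111 CPM in any library, while CD14 had 0.402 to 1.7 CPM. Of the fibroblast markers COL1A1 had 9.56 to 22.8 CPM, and LUM, COL3A1 and PDGFRA did not pass 0.185 CPM. Of the genes listed as low in the line EPCAM had 6.6 to 13.7 CPM and PGR 3.8 to 6.44 CPM. ESR1, CDH1 and KRT5 did not pass 0.491 CPM. Of the 58 members 29 passed the low-count filter and were tested among 17991 genes. The other 29 held 1 to 103 counts over all 16 libraries and no more than 18 in any of them, and 8 of them held a single count. By its label, RNA was less concentrated in replicates 3 and 4 than in replicates 1 and 2 of every group, and this set was a term in each fit. The set did not even out concentration between groups: paclitaxel replicates 1 and 2 had 345.6 and 429.7 ng/µl, against 1050.5 and 1290.9 ng/µl in DMSO replicates 1 and 2, and paclitaxel replicates 3 and 4 had 300.5 and 204.2 ng/µl, against 292.1 and 330 ng/µl in DMSO replicates 3 and 4. Between the sets 1 member was higher and 14 were lower in replicates 3 and 4, a share of 51.7% against 69.5% of all tested genes (36.2% higher and 33.3% lower).

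HIST1H2BK, a replication-linked H2B gene with a known polyadenylated form, had the highest mean level per length, 29.8 CPM per kilobase over all libraries. HIST1H1C, the linker histone H1.2 gene, followed at 14.4 CPM per kilobase, and the H2B gene HIST1H2BD at 5.89. The H4 gene HIST1H4I stood at 3.70 and the H2A gene HIST1H2AC at 2.91 CPM per kilobase. The most abundant H3 gene, HIST1H3B, reached 1.06 CPM per kilobase. In bulk RNA, fewer cells that express a gene and less RNA per cell cannot be told apart.

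Summed over the 58 members, the level was 54.1, 44.8, 31.2 and 32.2 CPM in the afatinib libraries (replicates 1 to 4), 88.1, 93.7, 91.6 and 81.5 CPM in the paclitaxel libraries and 52.9, 51.2, 45.8 and 45.7 CPM in the combination libraries, against 37.9, 48.5, 37.2 and 30.1 CPM in the DMSO libraries. The paclitaxel libraries were all above every other library. H2B genes made up 53.2 ± 1.51% of the paclitaxel sum and 54.6 ± 1.94% of the combination sum, against 41.2 ± 0.266% of the DMSO sum (SD, n = 4 each). H3 genes made up 1.39 ± 0.280% of the paclitaxel sum, against 5.48 ± 2.14% of the DMSO sum. Their own summed level was 0.815 to 1.56 CPM in paclitaxel libraries, against 1.11 to 3.84 CPM in DMSO libraries, and these overlapped.

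**Figure D1:**
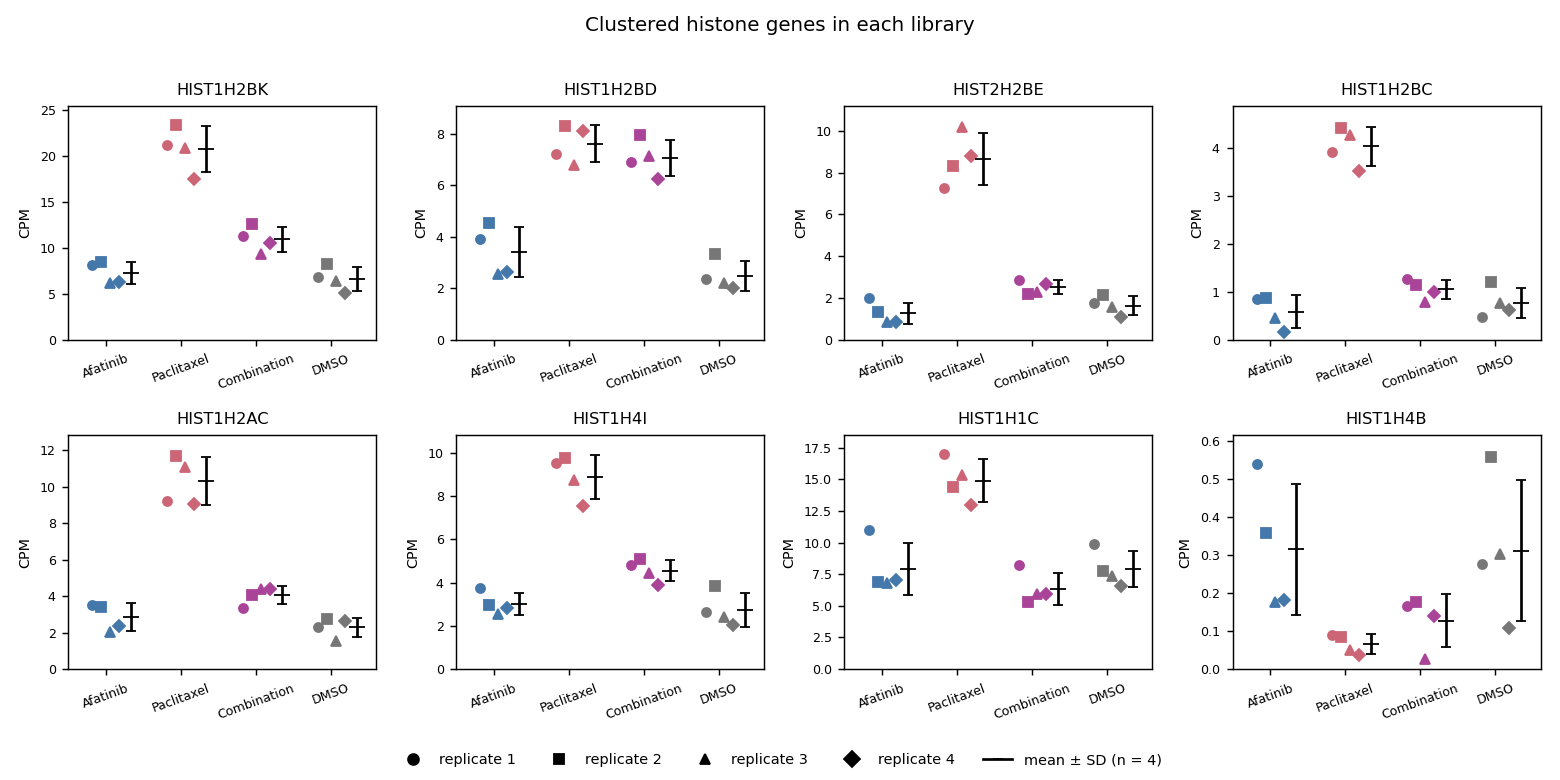
Level in CPM (vertical axes, from 0) of 8 clustered histone genes in each library, by treatment. Symbols are replicates and black bars the mean ± SD of 4 libraries. The paclitaxel points of 7 genes lie above all DMSO points, and those of HIST1H4B lie below them.

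Paclitaxel versus DMSO gave more higher than lower calls among the tested members. Of 29, 10 were higher and 4 lower at an adjusted p under 0.05 (edgeR quasi-likelihood test, Benjamini-Hochberg over all 17991 genes), a share of 48.3% against 20.5% of all tested genes called (8.65% higher and 11.9% lower). The 4 include HIST1H4B, which entered the test only through its DMSO and afatinib libraries and so had to be lower with paclitaxel. HIST2H3D and HIST1H2AH had 0 paclitaxel libraries at the filter's level, so they too entered through the other groups. Their calls are given as a description. The share of 48.3% counts all 4 lower calls. HIST2H2AC had all 4 libraries of each group at the filter's level, but its call was lost without the set term (adjusted p = 0.129). It was also lost within replicates 3 and 4 (−0.71, adjusted p = 0.287). No rise had 0 DMSO libraries at the filter's level. The members' median log2 fold change was 0.31, against 0 for all genes. H2B genes, 11 of the 29 tested, gave 6 of the 10 rises and none of the falls. H2A genes, 5 of the 29, gave 2 rises and 2 falls. Of the 3 blood markers measured, CD14 alone had enough counts to be tested, and it was higher with paclitaxel (1.07); the 3 summed to 0.764 to 1.75 CPM in paclitaxel libraries, against 0.491 to 0.755 CPM in DMSO libraries, with PTPRC and CD3E near 0, and their part in the result was not tested.

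HIST1H2BK (ENSG00000197903, chromosome 6, 27146418 to 27146798) had 21.2, 23.3, 20.8 and 17.4 CPM in paclitaxel libraries, against 6.77, 8.21, 6.35 and 5.10 CPM in DMSO libraries. The groups did not overlap. The log2 fold change was 1.65 ± 0.09 (SE, adjusted p = 6.04e-12), with 1.58 in replicates 1 and 2 and 1.74 in replicates 3 and 4. Of its 50-base stretches 74.1% also occur in other transcripts, mainly those of H2BFS, so some reads may belong to either gene. H2BFS itself had 1.35 ± 0.0641 CPM in paclitaxel libraries, against 0.529 ± 0.147 CPM in DMSO libraries (SD, n = 4 each).

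HIST1H4I (ENSG00000276180, chromosome 6, 27138588 to 27139881), an H4 gene, had 9.51, 9.76, 8.74 and 7.52 CPM in paclitaxel libraries, against 2.63, 3.86, 2.40 and 2.02 CPM in DMSO libraries, and rose by 1.71 ± 0.12. It lies on the opposite strand inside the RefSeq span of HIST1H2BK, which covers 8566 bases. The ratio of its CPM to that of HIST1H2BK was close in all groups, with means of 0.416 ± 0.0475 (afatinib), 0.430 ± 0.0136 (paclitaxel) and 0.420 ± 0.0435 (combination), against 0.408 ± 0.0417 in DMSO. The counted HIST1H2BK has 381 bases and does not overlap HIST1H4I. The strand setting of the counting is not known here, so counts of HIST1H4I may hold reads of the longer HIST1H2BK transcript, and every count of called members that follows includes both genes.

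HIST1H2AC (ENSG00000180573, chromosome 6, 26124145 to 26139116) and HIST1H2BC (ENSG00000180596, chromosome 6, 26114873 to 26123926), the head-to-head pair with the shared octamer shown above, rose together. HIST1H2AC had 9.20, 11.7, 11.1 and 9.07 CPM in paclitaxel libraries, against 2.29, 2.72, 1.53 and 2.62 CPM in DMSO libraries (2.18 ± 0.16). HIST1H2BC had 3.93, 4.42, 4.28 and 3.52 CPM in paclitaxel libraries, against 0.480, 1.21, 0.756 and 0.620 CPM in DMSO libraries (2.40 ± 0.23). In both genes the lowest paclitaxel library was well above the highest DMSO library.

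HIST2H2BE (ENSG00000184678, chromosome 1, 149884459 to 149886652), an H2B gene of the chromosome 1 cluster known to be polyadenylated, had 7.26, 8.31, 10.2 and 8.78 CPM in paclitaxel libraries, against 1.76, 2.14, 1.56 and 1.08 CPM in DMSO libraries. Its log2 fold change of 2.40 ± 0.19 was 2.00 in replicates 1 and 2 and 2.84 in replicates 3 and 4. HIST1H2BD (ENSG00000158373, chromosome 6, 26158146 to 26171349) had 7.22, 8.31, 6.79 and 8.11 CPM in paclitaxel libraries, against 2.36, 3.33, 2.18 and 2.02 CPM in DMSO libraries (1.62 ± 0.13). HIST1H1C (ENSG00000187837, chromosome 6, 26055787 to 26056428) had 17.0, 14.4, 15.3 and 13.0 CPM in paclitaxel libraries, against 9.90, 7.79, 7.37 and 6.58 CPM in DMSO libraries (0.92 ± 0.13). The groups did not overlap in any of these 3 genes, and the linker histone rose least.

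HIST1H2BJ (1.70 ± 0.26) and HIST1H2BN (1.56 ± 0.29), a pair of H2B genes at low levels, rose as well. HIST1H2BN overlaps the H2A gene HIST1H2AK on the other strand over 393 exonic bases. The H2A gene HIST2H2AA4 rose by 0.98 ± 0.31, but 97.1% of its 50-base stretches also occur elsewhere, mainly in its near-identical copy HIST2H2AA3. That call was lost without any of DMSO replicates 3 and 4 or paclitaxel replicates 2 and 3 (adjusted p 0.0591 to 0.0846). No leave-out of a library lost any of the other 9 rises.

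The 4 genes called lower were at low levels, and for 3 of them (HIST1H4B, HIST2H3D and HIST1H2AH) no paclitaxel library reached the filter's level. HIST1H4B (ENSG00000278705, chromosome 6, 26026815 to 26027252), an H4 gene, had 0.0899, 0.0854, 0.0492 and 0.0370 CPM in paclitaxel libraries, against 0.275, 0.558, 0.303 and 0.108 CPM in DMSO libraries, a log2 fold change of −2.22 that is given as a description, since no library with paclitaxel or the combination reached the filter's level for this gene. These are 1 to 4 counts a library with paclitaxel and 4 to 25 with DMSO. The H2A gene HIST2H2AC fell by 1.00 ± 0.26. The H3 gene HIST2H3D stood at −1.08 ± 0.37 and the H2A gene HIST1H2AH at −1.51 ± 0.52, both given as a description. Of the 50-base stretches of HIST2H3D 80.4% also occur elsewhere, mainly in AC239798.4. For HIST2H2AC this share was 30.5%, mainly in HIST2H2AA3, and for HIST1H2AH it was 3.85%. The call of HIST2H3D was lost without any of DMSO replicates 2, 3 and 4 or paclitaxel replicates 1, 2 and 4 (adjusted p 0.0504 to 0.154), and that of HIST1H2AH without any of the same 6 libraries or combination replicate 2 (adjusted p 0.0501 to 0.184). With log2 RNA concentration in place of the set all 10 rises passed, but HIST2H3D (−0.58, adjusted p = 0.259) and HIST1H2AH (−0.88, adjusted p = 0.222) did not. On the log2 values that the authors corrected for concentration the 4 stood at −0.77 (HIST1H4B), −0.42 (HIST2H2AC), −0.30 (HIST2H3D) and −0.51 (HIST1H2AH), none of them called by limma. Without the set term 9 members were higher and none lower with paclitaxel, and the same held within replicates 3 and 4. Annotated lengths in the count table were 387 to 438 bases for the 4 genes called lower and 381 to 5477 bases for the 10 that rose.

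RN7SK, an abundant small nuclear RNA without a poly(A) tail, varied between libraries of 1 group: 4.43, 15.4, 7.63 and 1.70 CPM in paclitaxel libraries, against 4.07, 20.02, 17.2 and 5.02 CPM in DMSO libraries. DMSO replicates 2 and 3, high in RN7SK, were also the highest DMSO libraries for HIST1H4B, HIST2H2AC, HIST2H3D and HIST1H2AH. With the RN7SK level as a further term, all 10 rises passed, and of the 4 lower calls HIST1H2AH (−1.16, adjusted p = 0.0775) and HIST2H3D (−0.93, adjusted p = 0.0788) did not. Whether recovery of RNA without a poly(A) tail took part in these differences was not tested.

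**Figure D2:**
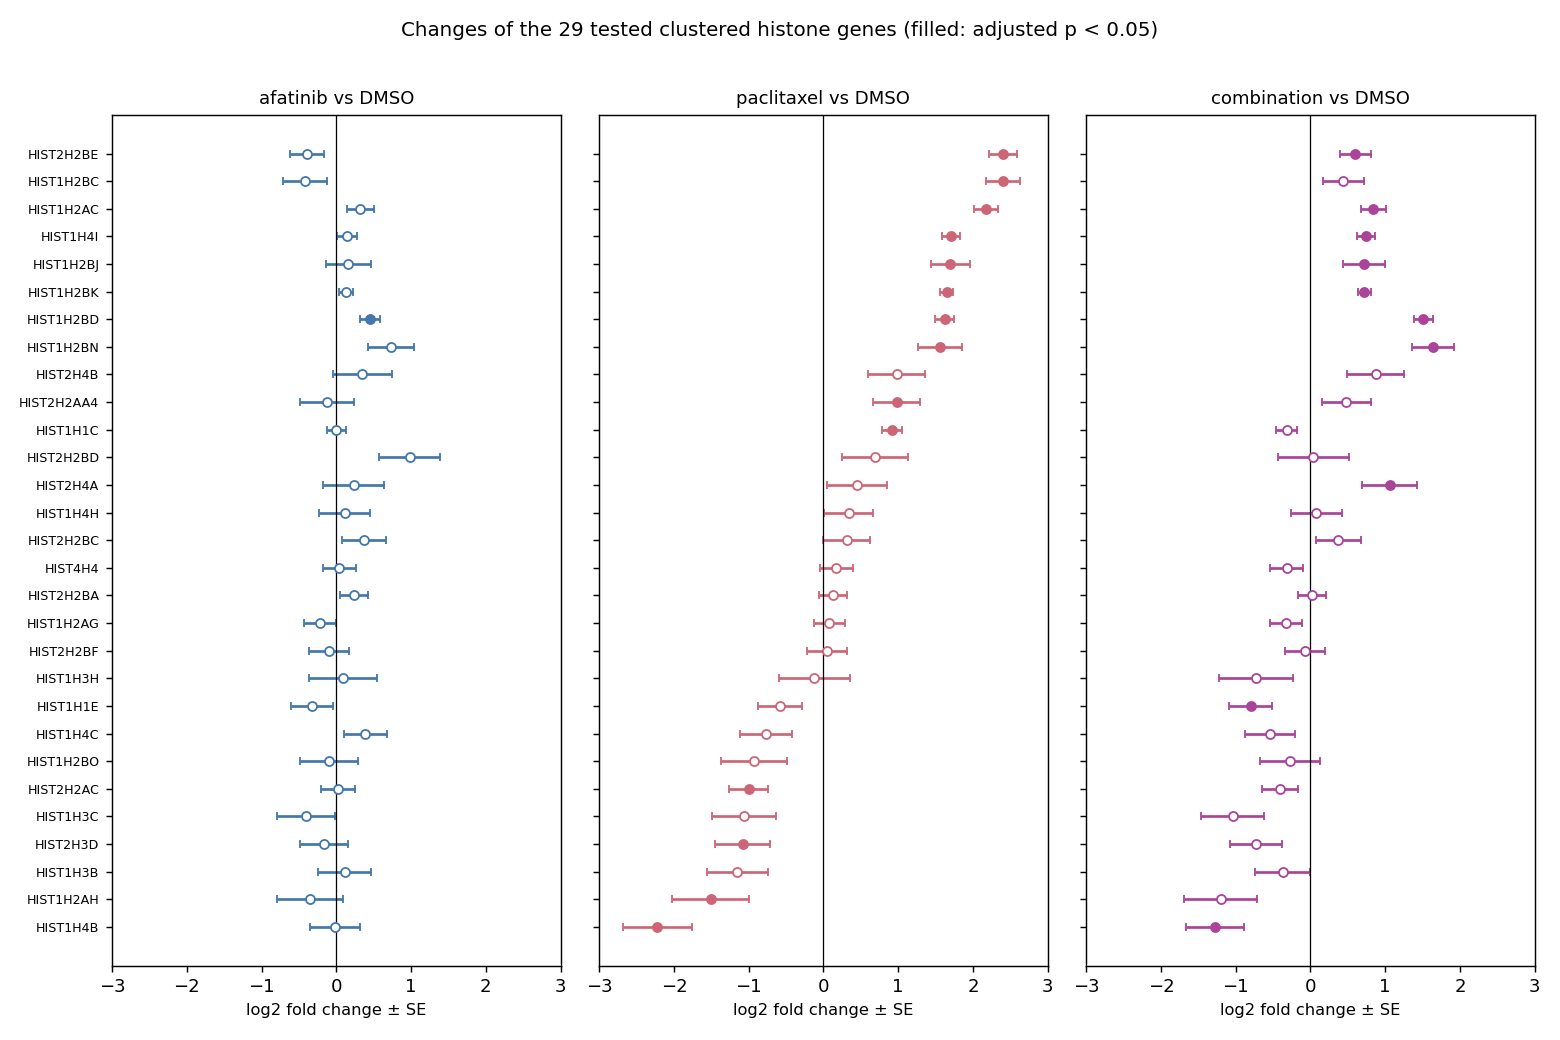
Log2 fold change with its SE (horizontal axes) of the 29 tested members against DMSO, for afatinib, paclitaxel and the combination, ordered by the paclitaxel change. Filled points passed an adjusted p under 0.05, which 1 member did for afatinib, 14 did for paclitaxel and 10 did for the combination.

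Among the 4 head-to-head pairs with both genes tested, the changes with paclitaxel stood side by side as follows. HIST1H2BK rose by 1.65 ± 0.09 with paclitaxel, while its partner HIST1H2AH, 330 bases away, had a change of −1.51 ± 0.52. The value of HIST1H2AH is a description only, since no paclitaxel library reached the filter's level for it. HIST2H2BE rose by 2.40 ± 0.19, while HIST2H2AC, 322 bases away, fell by 1.00 ± 0.26, with 0.405, 0.470, 0.492 and 0.370 CPM in paclitaxel libraries, against 0.824, 1.21, 0.864 and 0.566 CPM in DMSO libraries. HIST1H2BJ rose by 1.70 ± 0.26 and its partner HIST1H2AG, 291 bases away, stood at 0.08 ± 0.21. HIST1H2BC and HIST1H2AC, 218 bases apart, both rose. The differences within pairs were not tested as such.

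**Figure D3:**
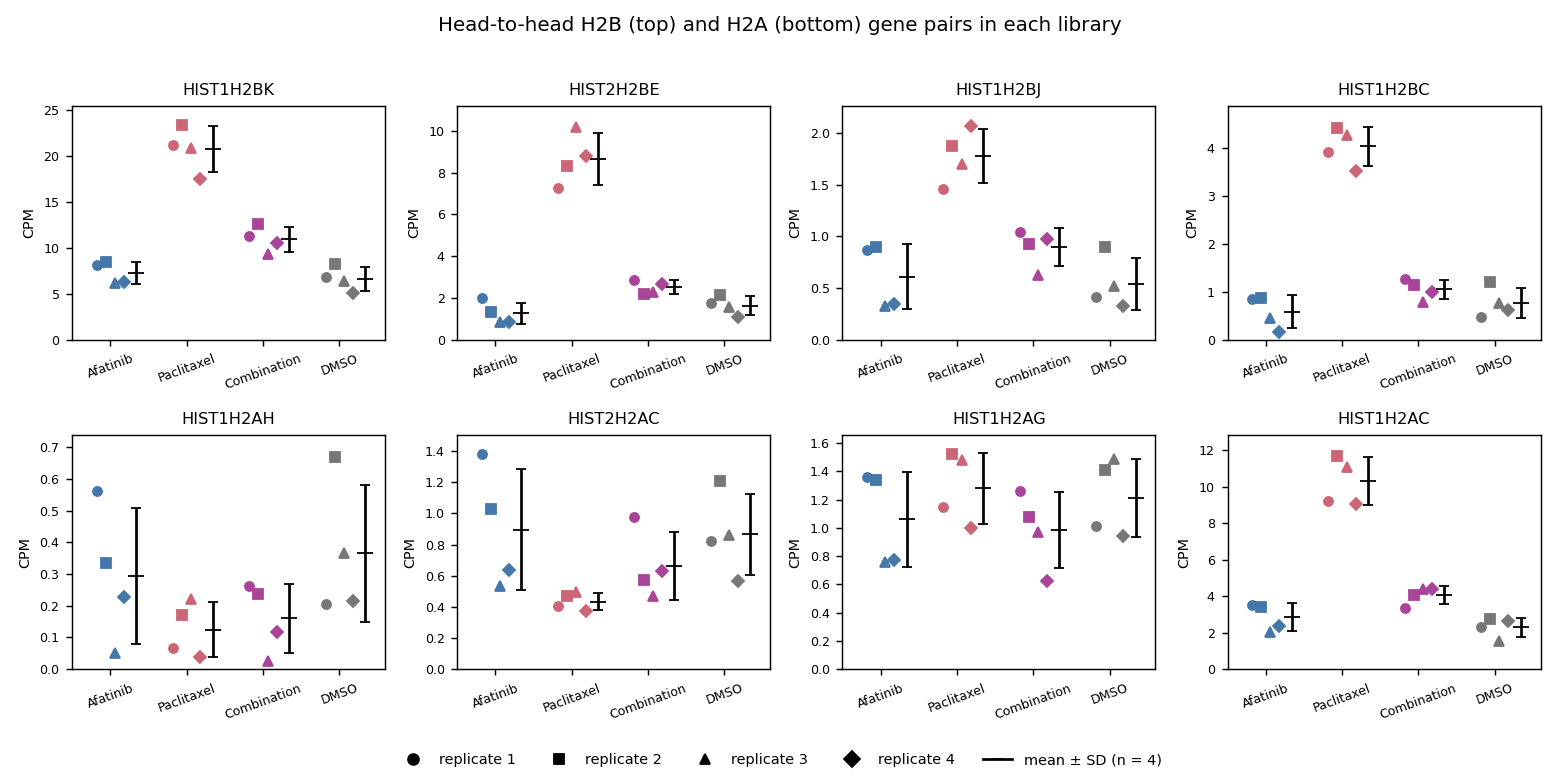
Level in CPM (vertical axes, from 0) of 4 head-to-head gene pairs in each library, the H2B gene on top and its H2A partner under it. Symbols are replicates and black bars the mean ± SD of 4 libraries. In all 4 H2B genes, and in the H2A gene HIST1H2AC, the paclitaxel points lie above all DMSO points. Those of HIST1H2AG overlap the DMSO points.

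Afatinib versus DMSO changed few members. HIST1H2BD was the 1 gene of 29 called, a share of 3.45% against 19.1% of all tested genes (9% higher and 10.1% lower), and the members' median was 0.09, against 0 for all genes. HIST1H2BD had 3.89, 4.52, 2.55 and 2.64 CPM in afatinib libraries, against 2.36, 3.33, 2.18 and 2.02 CPM in DMSO libraries, and the groups overlapped. Its log2 fold change of 0.45 ± 0.14 (adjusted p = 0.0258) lost its call when replicate 1 or 2 of afatinib, or 1 or 4 of DMSO, was left out (adjusted p 0.0581 to 0.137). Without afatinib replicate 3 the count of called members was 2. The 3 genes with the largest rise with paclitaxel stood at −0.39 ± 0.23 (HIST2H2BE), −0.42 ± 0.30 (HIST1H2BC) and 0.32 ± 0.18 (HIST1H2AC) with afatinib.

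The combination versus DMSO called 8 members higher and 2 lower, 34.5% of 29 against 38% of all tested genes (18.5% higher and 19.5% lower), so the share was near the background. Of the 2 lower calls 1 is HIST1H4B, which entered the test only through DMSO and afatinib libraries. The members' median was 0.02, against 0 for all genes. HIST1H2BD, at 6.89, 7.93, 7.15 and 6.23 CPM in combination libraries, against 2.36, 3.33, 2.18 and 2.02 CPM in DMSO libraries, rose by 1.51 ± 0.13. HIST1H2BN rose by 1.64 ± 0.28, with 0.641, 0.710, 0.943 and 1.09 CPM in combination libraries, against 0.343, 0.179, 0.259 and 0.297 CPM in DMSO libraries. In both genes all combination libraries were above all DMSO libraries.

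HIST1H2BK had 11.3, 12.6, 9.35 and 10.5 CPM in combination libraries, above every DMSO library (0.72 ± 0.09). HIST1H4I (0.74 ± 0.12) and HIST1H2AC (0.84 ± 0.17) rose too. HIST2H2BE (0.60 ± 0.21, lost without combination replicate 1 or 4 or DMSO replicate 4, adjusted p 0.0626 to 0.0842), HIST2H4A (1.06 ± 0.37) and HIST1H2BJ (0.72 ± 0.28) passed in the fit of all libraries. The call of HIST2H4A, an H4 gene with a near-identical copy, was lost without combination replicate 4 or DMSO replicate 1 or 4 (adjusted p 0.0681 to 0.100). That of HIST1H2BJ was lost without combination replicate 1, 2 or 4 or DMSO replicate 1 or 4 (adjusted p 0.0529 to 0.149). HIST1H1C, which rose with paclitaxel, was at −0.32 ± 0.14 in the combination (adjusted p = 0.0698).

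The linker histone gene HIST1H1E (−0.80 ± 0.29) was lower in the combination, and HIST1H4B stood at −1.28, a description only. HIST1H1E lost its call without any of combination replicates 2, 3 and 4 or DMSO replicates 2, 3 and 4 (adjusted p 0.0505 to 0.142), with log2 RNA concentration in place of the set (−0.40, adjusted p = 0.241) and with the replicate number as a block (−0.78, adjusted p = 0.054). Without combination replicate 4 or DMSO replicate 4 the count of called members was 6.

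The combination versus paclitaxel asked what afatinib added to paclitaxel. No member was higher and 7 of 29 were lower, 24.1% against 24.2% of all tested genes called (12.6% higher and 11.6% lower), so the share of both directions was at the background. All 7 were among the genes higher with paclitaxel, a comparison that shares the paclitaxel libraries. HIST1H2BC was at −1.96 ± 0.22, HIST2H2BE at −1.80 ± 0.18, HIST1H2AC at −1.34 ± 0.15 and HIST1H1C at −1.24 ± 0.13. HIST1H2BJ (−0.98 ± 0.24), HIST1H4I (−0.97 ± 0.11) and HIST1H2BK (−0.92 ± 0.09) were lower by less. HIST2H2BE had 2.87, 2.17, 2.28 and 2.67 CPM in combination libraries, against 7.26, 8.31, 10.2 and 8.78 CPM in paclitaxel libraries, with a wide gap between the groups. HIST1H1C had 8.22, 5.30, 5.92 and 5.92 CPM in combination libraries, against 17.0, 14.4, 15.3 and 13.0 CPM in paclitaxel libraries, also without overlap. Leaving out any library kept the count at 7.

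HIST1H2BD and HIST1H2BN were not called between the combination and paclitaxel. HIST1H2BD was at −0.11 ± 0.12 (adjusted p = 0.574), with 7.05 ± 0.703 CPM in the combination, against 7.61 ± 0.719 CPM with paclitaxel (SD, n = 4 each). HIST1H2BN was at 0.07 ± 0.24 (adjusted p = 0.860). Their levels in both groups overlapped.

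The combination versus afatinib asked what paclitaxel added to afatinib. Of 29 members 7 were higher and 2 lower, 31% against 27.4% of all tested genes (13.1% higher and 14.3% lower). HIST1H2BD (1.06 ± 0.13), HIST2H2BE (0.99 ± 0.21), HIST1H4I (0.60 ± 0.12) and HIST1H2BK (0.59 ± 0.09) were higher in every leave-out. Without the set term HIST1H4I lost its call (edgeR, adjusted p = 0.0623). Within replicates 1 and 2 HIST1H4I (adjusted p = 0.0561) and HIST2H2BE (adjusted p = 0.0903) were not called. HIST2H2BE was at 0.61 in replicates 1 and 2 and 1.53 in replicates 3 and 4, and HIST1H2BD at 0.81 and 1.37. In the same order HIST1H4I was at 0.55 and 0.65 and HIST1H2BK at 0.52 and 0.68. HIST1H2BN (0.91 ± 0.26) was not called without afatinib replicate 3 (adjusted p = 0.0576), and the count of called members was then 5. Its change was 0.29 in replicates 1 and 2 and 1.61 in replicates 3 and 4. HIST1H2BC (0.86 ± 0.28) was not called without combination replicate 1 or 4 or afatinib replicate 3 or 4 (adjusted p 0.0569 to 0.0906), nor HIST1H2AC (0.52 ± 0.16) without combination replicate 3 or 4 or afatinib replicate 3 or 4 (adjusted p 0.0619 to 0.091). In replicates 1 and 2 HIST1H2BC was at 0.47 and HIST1H2AC at 0.09, against 1.57 and 1 in replicates 3 and 4. Of the 2 lower calls 1 is again HIST1H4B (−1.25), given as a description. The H4 gene HIST1H4C (−0.93 ± 0.31) lost its call without combination replicate 1, 2 or 4 or afatinib replicate 1, 2 or 3 (adjusted p 0.0539 to 0.120).

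The interaction tests whether the change with paclitaxel differs when afatinib is present, as the combination minus both single-drug changes. Of 29 members 5 had a negative interaction and none a positive one, 17.2% against 0.884% of all tested genes called (0.389% higher and 0.495% lower). HIST1H2BK was 0.59 ± 0.09 higher in the combination than with afatinib and 1.65 ± 0.09 higher with paclitaxel than with DMSO, an interaction of −1.05 ± 0.13 (adjusted p = 0.000101). HIST1H2AC had an interaction of −1.66 ± 0.23 (adjusted p = 0.000994) and HIST1H4I one of −1.11 ± 0.17 (adjusted p = 0.0018). HIST1H1C, at −0.32 ± 0.14 between the combination and afatinib and 0.92 ± 0.13 between paclitaxel and DMSO, had one of −1.24 ± 0.19 (adjusted p = 0.00274).

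HIST2H2BE had an interaction of −1.40 ± 0.29 (adjusted p = 0.028), lost without combination replicate 2 or 3, paclitaxel replicate 4, afatinib replicate 1 or 2 or DMSO replicate 4 (adjusted p 0.052 to 0.0705). HIST1H2BC was at −1.54 ± 0.38 (adjusted p = 0.0522) and HIST1H2BD at −0.56 ± 0.19 (adjusted p = 0.171), which did not pass. The 5 calls depend on the set term: without it edgeR called the interaction of no member and no gene of the table, with 9 members and 643 genes at an unadjusted p under 0.05. DESeq2, with the set term, called 6 members.

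**Figure D4:**
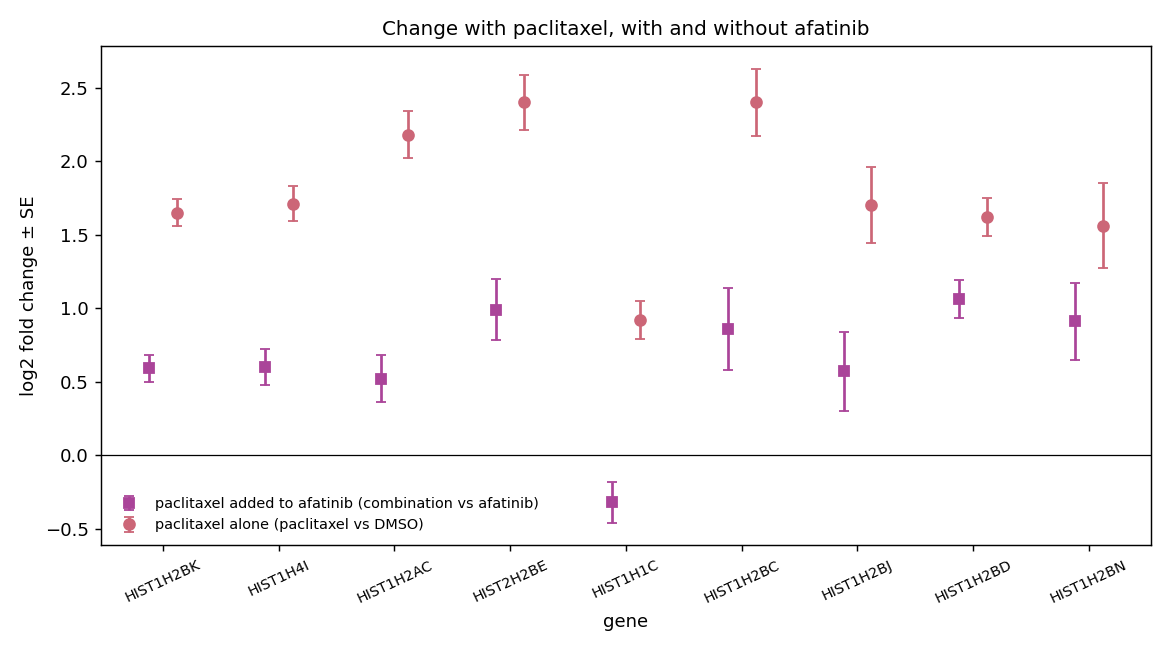
Log2 fold change with its SE (vertical axis) of 9 members when paclitaxel was added to afatinib (squares, combination versus afatinib) and when it was given alone (circles, paclitaxel versus DMSO). Each square lies under its circle, and HIST1H1C is under 0 in the combination.

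Other genes of histone supply were counted from lists of the pathway. Their shares of called genes stand beside 20.5% of all tested genes with paclitaxel, 38% in the combination and 19.1% with afatinib. Of 18 S phase genes, such as MCM helicase subunits, none rose and 16 fell with paclitaxel (median −0.48, against 0 for all genes), and none rose and 17 fell in the combination (median −0.66). MCM6 was at −0.76 ± 0.07 with paclitaxel and −1.21 ± 0.07 in the combination. With afatinib 1 rose and 8 fell. The shares called were 88.9% with paclitaxel, 94.4% in the combination and 50% with afatinib. These lists were chosen with earlier results of these data known.

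Of 15 genes of histone gene transcription 4 rose and 5 fell with paclitaxel. E2F1, an activator of S phase genes, was at −0.93 ± 0.06, and CCNE2, a cyclin that with CDK2 drives histone transcription, at −0.74 ± 0.09. In the combination 4 rose and 6 fell, with CCNE2 at −1.98 ± 0.09, and with afatinib none rose and 2 fell. The shares called were 60% with paclitaxel, 66.7% in the combination and 13.3% with afatinib, the last under that of all genes. CCNE2 (−0.91 ± 0.13) and E2F1 (−0.54 ± 0.09) also had a called interaction, lost without the set term (adjusted p 0.312 for CCNE2 and 0.430 for E2F1).

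Of 20 genes of histone mRNA processing 4 rose and 4 fell with paclitaxel (40% called) and 6 rose and 4 fell in the combination (50%). SLBP, the protein that binds the stem-loop, was at −0.37 ± 0.06 in the combination. That call was lost without the set term (adjusted p = 0.0607). It was also lost with limma, without a trend, on the authors' corrected values (−0.21, adjusted p = 0.0627). LSM11, a subunit of the U7 particle that cuts histone mRNA, was at −0.37 ± 0.10 with paclitaxel and −0.75 ± 0.10 in the combination. Its paclitaxel call was lost without DMSO replicate 2 (adjusted p = 0.0578) and without the set term (adjusted p = 0.396). With afatinib 1 rose and 3 fell (20%), a share near that of all genes.

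Of 22 histone chaperones 2 rose and 8 fell with paclitaxel (45.5% called), among them ASF1B (−0.72 ± 0.06), which carries H3 and H4. In the combination 5 rose and 8 fell (59.1%), with HJURP, the chaperone of the centromere histone, at 0.73 ± 0.07, and with afatinib 3 rose and 2 fell (22.7%, near that of all genes). Of 13 genes listed as variant histones, 2 rose and 3 fell with paclitaxel (38.5% called). The rises were H2BFS (1.34 ± 0.19), which shares sequence with HIST1H2BK, and the centromere histone CENPA (0.45 ± 0.10). CENPA lost its call without the set term (adjusted p = 0.497) and within replicates 3 and 4 (0.20, adjusted p = 0.407). H3F3A was at −0.51 ± 0.06 and lost its call without the set term (adjusted p = 0.166) and with limma on the authors' corrected values (−0.17, adjusted p = 0.348). In the combination 1 rose and 6 fell (53.8%), with CENPA at 1.15 ± 0.10 and the linker histone gene H1F0 at −1.11 ± 0.10, and with afatinib none rose and 3 fell (23.1%, near that of all genes).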

How the data were processed

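The authors deposited gene counts, per the submitters' processing notes from alignment with STAR 2.7.5b (build hg38) and counting with featureCounts (Subread 2.0.1). The authors also deposited log2 values corrected for RNA concentration, which serve here as an alternative. Library kit, strand setting and treatment of multi-mapping reads are not given in the sources used here. Genes without a symbol held 0.036 to 0.0462% of a library's counts.

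Genes passed filterByExpr (minimum count 10, minimum total 15). The test was edgeR's quasi-likelihood F-test (version 4.0.16, R 4.3.3, robust, TMM factors) with groups and concentration set in 1 fit of all 16 libraries. Benjamini-Hochberg adjustment ran over 17991 genes, called under 0.05. An SE is the absolute log2 fold change over the square root of F. The method was tested on simulated data. The simulation held no difference between the concentration sets, so it does not test the set term. Positions come from GENCODE v29 and promoters from RefSeq.

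Same-number libraries deviated together (correlations 0.37 to 0.70 over 24 pairs), but libraries of the same set and other numbers did so about as much (0.38 to 0.67). These values show the set and do not tell a pairing by replicate number apart from it. Leave-outs and within-set fits keep the filter of all 16 libraries, which was decided after their first outcomes had been seen. Alternatives were DESeq2 1.42.0, limma 3.58.1, other filters, scalings and terms. Named are the 5 markers, called members and the most abundant members of each class, and from the other lists members with the smallest p. Members and lists were chosen with earlier results of these data known.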

Additional observations from a re-analysis of the deposited data

Results flagged for a closer look

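The change with paclitaxel differed with and without afatinib, by the interaction term of the edgeR fit, for HIST1H2BK (−1.05), HIST1H2AC (−1.66), HIST1H4I (−1.11), HIST1H1C (−1.24) and HIST2H2BE (−1.40), on the log2 scale. Among 120 groups of 4 libraries checked for a single library far from the other 3, 3 were flagged, which is fewer than the about 1 in 20 that chance gives. HIST1H1C had 11 CPM in afatinib replicate 1 and 6.78 to 7.05 CPM in the other afatinib libraries. HIST1H4H had 0.617 CPM in combination replicate 1 and 0.367 to 0.395 CPM in the others, and HIST2H2AA4 had 0.414 CPM in combination replicate 2 and 0.236 to 0.256 CPM in the others.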

How the results depend on the processing

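No called histone gene changed direction under any alternative run (46 gene results, 1316 values), and 198 values missed the threshold; of 2897 values for 100 results of the other lists 229 missed it and none changed direction. Of the 46 results 31 passed in every leave-out. Counts of called members over the leave-outs ran from 0 to 2 for afatinib, 11 to 16 for paclitaxel, 6 to 12 for the combination, 7 to 7 for the combination against paclitaxel, 5 to 9 against afatinib, 4 to 6 for the interaction and 13 to 18 for replicates 3 and 4 against 1 and 2. Without the set term the counts were 0 for afatinib, 9 for paclitaxel, 5 for the combination, 3 for the combination against afatinib and 0 for the interaction. Within replicates 1 and 2 they were 0, 5 (combination), 2 (combination against afatinib) and 1 (interaction), and within replicates 3 and 4 they were 0, 9 (paclitaxel) and 1 (interaction); these fits hold fewer libraries. At an unadjusted p under 0.05 the 0 counts for afatinib stand beside 3 members without the set term, 3 within replicates 1 and 2 and 6 within replicates 3 and 4. With at least 1 CPM in 4 libraries, which leaves 13 members, 9 were called with paclitaxel and 7 between the replicate sets, and with no filter 16 in the combination. The cause of the other shifts was not tested.

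On the authors' concentration-corrected values, the limma fit planned (robust, without a mean-variance trend) called 0 members and 0 genes with paclitaxel, although 14 members and 4837 genes had an unadjusted p under 0.05, 0 members with afatinib, 3 in the combination, 1 against afatinib and 0 for the interaction (8 unadjusted). Robust and trend settings had been tried in all 4 forms, which gave 0, 5, 1145 and 1148 genes with paclitaxel and 0, 4, 10 and 10 members. The robust fit with a trend, chosen after these counts had been seen, called 10 members with paclitaxel, 0 with afatinib, 5 in the combination, 1 against afatinib and 0 for the interaction. The paclitaxel count on these values thus depends on the limma setting.

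The replicate block gave 15 calls with paclitaxel, 10 in the combination, and lost no call but that of HIST1H1E; DESeq2 gave 13 and 11. The 29 members left out by the filter, with at most 18 counts in a library, were not tested at this depth.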
